A study of Danio rerio with 8 samples.

Results

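Pigment cell and pigment epithelium genes were followed in the retina of albino zebrafish after photoreceptors had been damaged by light. The group was given as 10 gene symbols, and all probe sets that the array annotation assigns to one of these symbols alone were taken. It named a probe set for 7 of the 10 genes, tspan36, pmelb, dct, rpe65a, rgrb, mitfa and tyr. These had 8 probe sets among the 15502 tested, with 2 for rpe65a, and 7 of 8793 named genes. The genes pmela, tyrp1b and slc24a5 had no probe set of that symbol and were not analysed here. Whole retinas were compared between 4 control arrays, from unlesioned albino fish put back under ordinary light after dark adaptation, and 4 light lesion arrays, from albino fish kept after the same adaptation in constant bright light for 72 hours. The labels give neither the albino mutation nor the age of the fish, and do not state whether a replicate was 1 fish or a pool, so that p-values reflect the spread among these arrays alone, and that spread may be technical. Light exposure and lesion came together in these groups and cannot be told apart.

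Melanin is made in melanosomes, organelles of the melanophores of the skin and choroid and of the retinal pigment epithelium, the cell layer behind the photoreceptors. Tyrosinase (tyr) opens the pathway, dopachrome tautomerase (dct) and tyrosinase-related proteins act after it, Pmel proteins form the fibrils on which melanin is laid down, and the transcription factor Mitf switches these genes on. In albino zebrafish the pigment cells and the epithelium form but hold little or no melanin. The epithelium also takes up shed outer segments and regenerates the visual chromophore through the isomerase Rpe65. A dissected fish retina can carry pigment epithelium with it, and in whole-retina RNA more cells of a type and more RNA per cell cannot be told apart.

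All levels below are RMA values on the log2 scale, in which 1 unit is a doubling of signal, and each difference is the mean of the light lesion arrays less that of the controls. A gene passed where limma's adjusted p, corrected over all 15502 probe sets, was under 0.05. Background was set at 7.04, the highest mean among 15 array control probe sets for bacterial transcripts. Retinal genes were far above background in the control arrays, where the rod transducin gnat1 stood at 14.49 ± 0.02 and the Müller glia and pigment epithelium gene rlbp1a at 12.56 ± 0.05 (SD, n = 4). Within a group the arrays' mean correlations with each other were 0.992 to 0.997, and with the other group 0.960 to 0.967. By this measure no array stood apart. Since even the 2 groups correlated so highly, it cannot show smaller deviations of an array.

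Of the 7 measured genes 5 rose after the light lesion, none fell and 2 did not pass. Over the whole array 24.4% of genes were called higher and 20.1% lower. The 5 genes that rose, tspan36, pmelb, dct, rpe65a and rgrb, had no overlap between the groups, as was the case with light lesion arrays higher for 23.7% of all genes. At least 2-fold rises were seen for 3 of them, against 3.66% of all genes. The median difference of the 7 genes was 0.58, beside a median of -0.03 over all genes. The other measured genes, mitfa and tyr, regulate and start melanin synthesis, and their arrays overlapped between the groups.

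**Figure D1:**
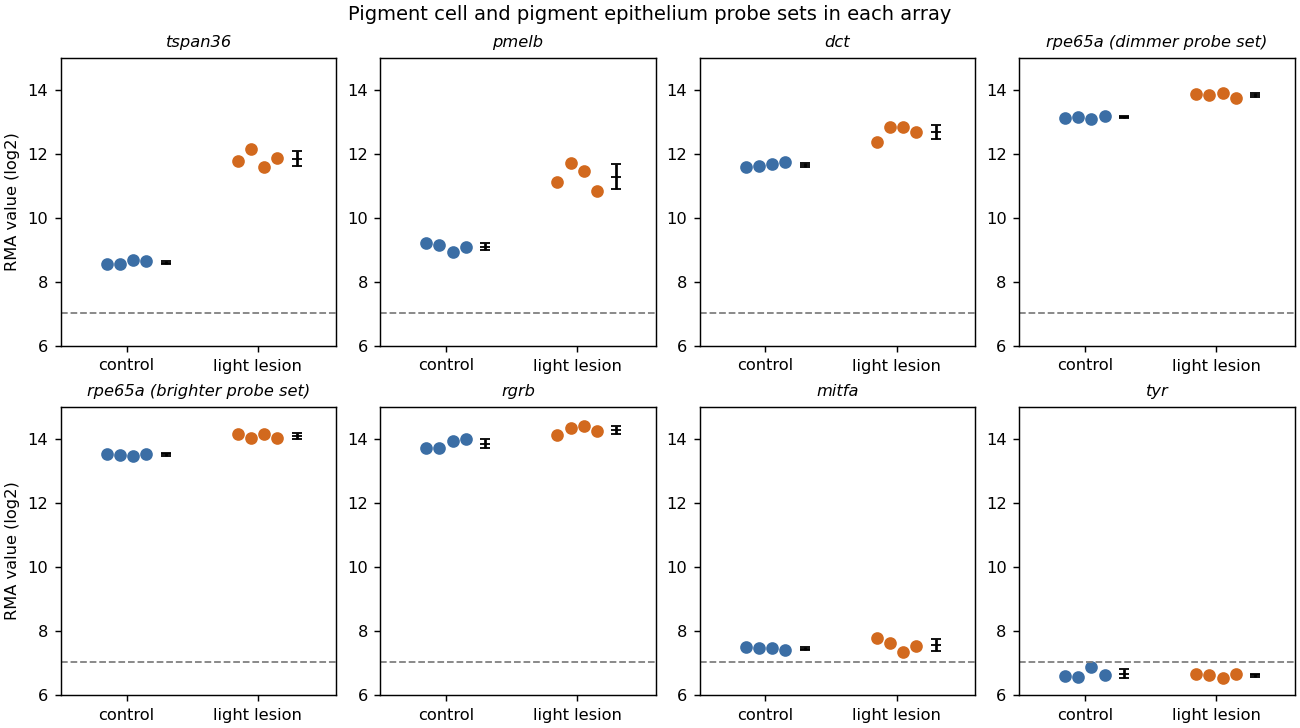
RMA values (log2) of the 8 probe sets in each of 4 control and 4 light lesion arrays, with the mean and SD of each group beside the points and background (7.04) as a dashed line. The groups are separate for tspan36, pmelb, dct, rgrb and both probe sets of rpe65a, they overlap for mitfa, and tyr lies under background in all 8 arrays.

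The tetraspanin tspan36, a membrane protein used in zebrafish as a marker of pigment cells of several kinds, changed most. Its control arrays read 8.56, 8.56, 8.68 and 8.64 in replicates 1 to 4, and its light lesion arrays 11.79, 12.17, 11.58 and 11.89. Every light lesion array lay at least 2.91 above every control array. The mean went from 8.61 ± 0.06 to 11.86 ± 0.24 (SD, n = 4), a 9.52-fold rise with a 95% interval of 8.05 to 11.3 (log2 difference 3.25, SE 0.11, limma adjusted p = 1.03e-07). Among all 8793 genes this was rank 5 of the rises. The control mean lay 1.57 above background.

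The melanosome gene pmelb, a paralogue of pmela that codes for a fibril-forming Pmel protein, was next. Its values were 9.21, 9.17, 8.94 and 9.11 in the control arrays and 11.11, 11.73, 11.47 and 10.84 in the light lesion arrays. The groups were apart by 1.63, with the widest spread of the members among light lesion arrays. The mean rose from 9.11 ± 0.12 to 11.29 ± 0.39, which is 4.54-fold with a 95% interval of 3.48 to 5.91 (log2 difference 2.18, SE 0.17, limma adjusted p = 8.71e-06). It was rank 39 among the rises. The change of pmelb was not set against that of pmela, which was not measured.

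The enzyme gene dct, which acts downstream of tyrosinase and is an early marker of both melanophores and pigment epithelium, also rose. The control arrays read 11.61, 11.62, 11.69 and 11.74 for dct, and the light lesion arrays 12.37, 12.84, 12.86 and 12.70. Light lesion replicate 1 was the lowest of its group and still 0.63 above the highest control. The mean went from 11.66 ± 0.06 to 12.69 ± 0.23, or 2.04-fold with a 95% interval of 1.74 to 2.39 (log2 difference 1.03, SE 0.10, limma adjusted p = 4.01e-05).

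The genes of the visual cycle rose by less. For rpe65a, the isomerohydrolase of the pigment epithelium that makes 11-cis-retinol from retinyl esters, the brighter probe set read 13.55, 13.51, 13.48 and 13.55 in controls and 14.18, 14.03, 14.17 and 14.02 after the lesion. The 4 light lesion arrays lay close together and clear of the controls. The difference was 0.58 (SE 0.05), a 1.49-fold rise with a 95% interval of 1.38 to 1.62 (limma adjusted p = 2.42e-05). The other rpe65a probe set went from 13.15 ± 0.03 to 13.85 ± 0.08, a difference of 0.70 (SE 0.05, limma adjusted p = 5.78e-06). Both probe sets thus moved in one direction, with overlapping ranges of change, and they read the same gene and are not separate evidence of its rise.

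The opsin rgrb, of the Rgr family of light-driven retinal isomerases found in pigment epithelium and Müller glia, had control values of 13.73, 13.73, 13.96 and 14.00. Its light lesion values were 14.14, 14.34, 14.41 and 14.25. Controls 3 and 4 lay close under the lowest light lesion array, with a gap of 0.14. The rise was 1.35-fold with a 95% interval of 1.19 to 1.54 (log2 difference 0.43, SE 0.08, limma adjusted p = 0.00245). The highest value of any probe set in the table was 14.89, so rpe65a and rgrb were read near the top of the scale in both groups.

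The regulator and the first enzyme of the pathway gave no such difference. The transcription factor mitfa, needed for all zebrafish neural crest melanophores, read 7.50, 7.46, 7.46 and 7.39 in controls and 7.78, 7.63, 7.33 and 7.53 after the lesion. Light lesion replicate 3 was the lowest of all 8 arrays and replicate 1 the highest. Its difference was 0.11 with a 95% interval of -0.08 to 0.31 (limma adjusted p = 0.32), whose upper end is a 1.24-fold rise, at a level 0.42 above background in controls. Tyrosinase read 6.58, 6.57, 6.87 and 6.64 in controls and 6.64, 6.63, 6.54 and 6.66 after the lesion. All 8 tyr values were under background, and no difference was called (difference -0.05, 95% interval -0.20 to 0.11, limma adjusted p = 0.633). The upper end of the interval is a 1.08-fold rise. A small change in tyr can be missed at this signal, though a larger rise from under background was called for krt18a.1 (6.59 to 7.98).

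**Figure D2:**
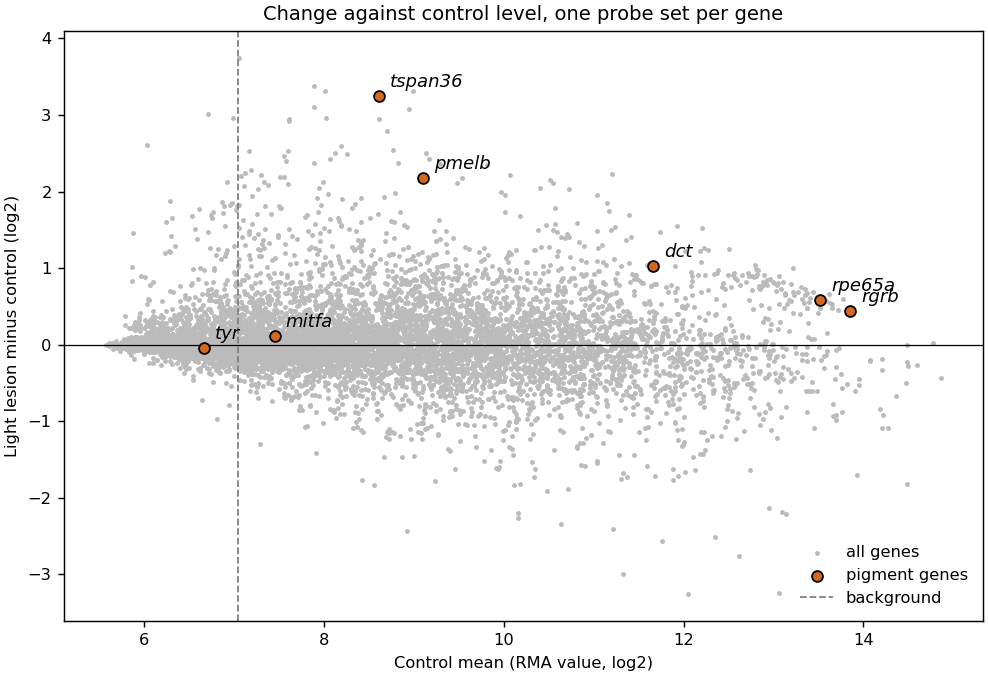
Light lesion minus control difference (log2) against the control mean (RMA value, log2) for 1 probe set per gene, with 8793 genes in grey, the 7 measured pigment genes in orange and background (7.04) as a dashed line. The gene tspan36 (3.25) lies among the largest rises on the array, pmelb (2.18) and dct (1.03) rise less, rpe65a (0.58) and rgrb (0.43) lie near the top of the scale, and tyr lies below background.

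The order of the changes was tspan36, pmelb, dct, rpe65a, rgrb, mitfa and tyr, with rgrb (0.46) and rpe65a (0.45) changing places after a second quantile normalization. Taken array by array against the control mean, the change of tspan36 ran from 2.98 to 3.57, above the highest change of pmelb (2.63). The lowest change of pmelb (1.73) in turn lay above the highest of dct (1.19). The 4 arrays therefore kept tspan36, pmelb and dct apart. The lowest change of dct (0.70) lay above the highest of the brighter rpe65a probe set (0.65) but under that of the dimmer (0.77). Below dct the ranges overlapped: the brighter rpe65a probe set (0.50 to 0.65) overlapped with rgrb (0.29 to 0.55). The lowest change of rgrb was also under the highest of mitfa (0.32). These orders describe the 7 genes and were not tested.

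**Figure D3:**
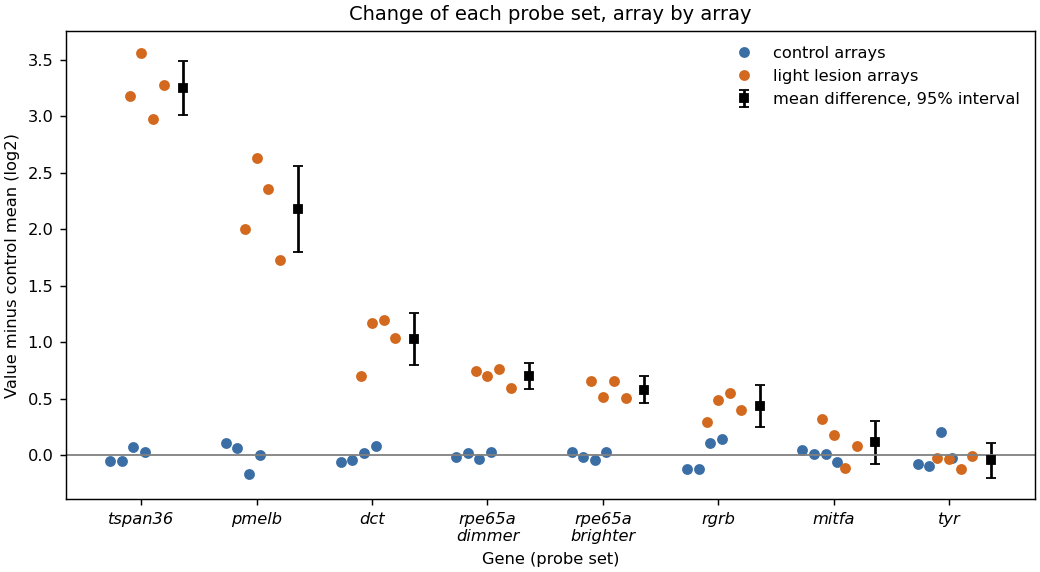
Value minus the control mean (log2) in each control array (blue) and light lesion array (orange) for the 8 probe sets, with the mean difference and its 95% interval from limma as black squares and bars. The light lesion arrays of tspan36 (2.98 to 3.57), pmelb (1.73 to 2.63) and dct (0.70 to 1.19) do not overlap with each other, whereas those of mitfa and tyr reach the controls.

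The light lesion arrays did not share one order across these genes. Replicate 2 was highest for tspan36 and pmelb, replicate 3 for dct and rgrb, and replicate 1 for the brighter rpe65a probe set. The lowest array was replicate 3 for tspan36, replicate 4 for pmelb and rpe65a, and replicate 1 for dct and rgrb. Of the 5 genes that rose, only dct and rgrb had the same order of all 4 arrays (3, 2, 4, 1), an order that 5.45% of the genes called higher had. The order of tspan36 (2, 4, 1, 3) was that of 6.71% of the genes called higher, among them the melanosome GTPase rab32a, the keratins krt18a.1 and krt8 and the leukocyte genes lgals9l1 and grna. It was also the order of the mean over the microglia and leukocyte list, though 2 of the 18 called genes of that list had it singly. The order of pmelb (2, 3, 1, 4) was likewise that of 2 of these 18 genes, and of 4.71% of the genes called higher. With 4 arrays these orders are descriptions.

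**Figure D4:**
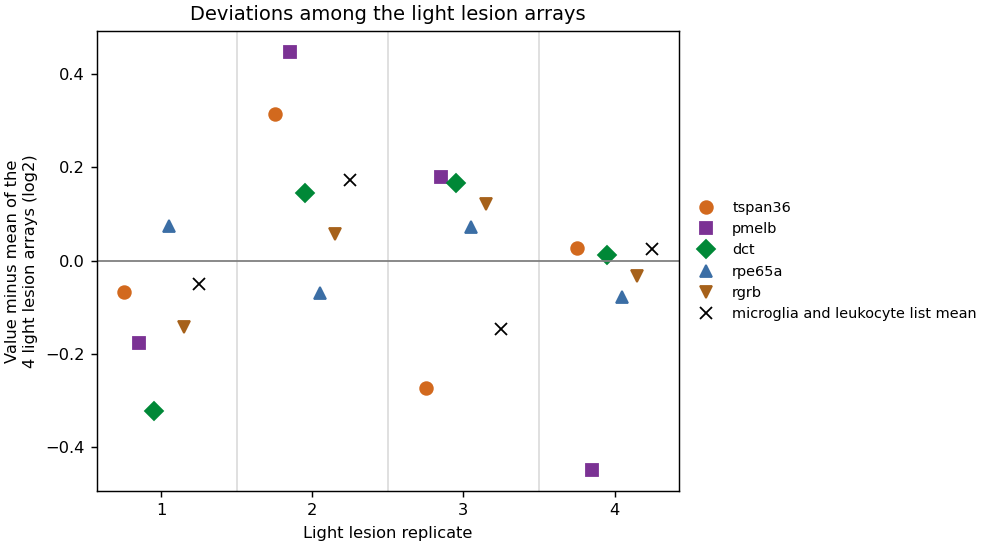
Value minus the mean of the 4 light lesion arrays (log2) in each light lesion replicate for the 5 genes that rose and for the mean over the microglia and leukocyte list (crosses). Replicate 2 is highest for tspan36 (0.31) and pmelb (0.45), replicate 1 is lowest for dct (-0.32), and the deviations of rpe65a stay within 0.08 of 0.

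Of 47 listed genes of melanin synthesis and melanosomes only 16 were measured. Apart from dct and tyr none of the 16 was an enzyme of melanin synthesis, and slc45a2, oca2, gpr143 and tyrp1a were not measured. The list therefore says little about the rest of that pathway. Of the 16 measured genes 5 rose, 1 fell and 10 did not pass, with a median of 0.15. Without pmelb, dct and tyr, 3 of 13 rose and 1 fell, a share of rises close to the 24.4% of all genes, with a median of 0.12. The largest rise among them was that of cd63, a tetraspanin of late endosomes and lysosomes that in mammals also takes part in sorting Pmel, from 11.14 ± 0.15 to 13.00 ± 0.10 (log2 difference 1.85, SE 0.08, limma adjusted p = 3.45e-07). The small GTPase rab32a, which brings enzymes to melanosomes and acts in other lysosome-related organelles, rose by 0.91 (SE 0.09). The adaptor subunit ap3b1a rose by 0.56 at its brighter probe set, from a level at background (7.07), while its other probe set, under background, was -0.08. The gene that fell, hps4, was chosen after its values were seen (-0.20, limma adjusted p = 0.0412), and its call was lost without any one of control replicates 2, 3 and 4 and light lesion replicates 2, 3 and 4 (adjusted p = 0.0599 to 0.109). Leaving out light lesion replicate 3 raised the count of rises in this list to 8.

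Regulators of the pigment cell lineage did not rise. Of 16 measured genes none was called higher, 6 were called lower and 10 did not pass, with a median of -0.12. Among all genes 24.4% were called higher and 20.1% lower. At or under background in both groups were 5 of the 16, mc1r, ednrba, sox9a, tfap2c and pax3a. The neural crest factor tfap2a, which amacrine cells of the retina also express, fell most, from 12.32 ± 0.05 to 11.80 ± 0.22 (log2 difference -0.52, SE 0.10, limma adjusted p = 0.00225). The receptor tyrosine kinase kita, which melanophores need to migrate and survive, fell by 0.46 (SE 0.07, limma adjusted p = 0.00064), from 7.06 to 6.60, at and under background. The crest transcript crestin (-0.20), sox5 (-0.19), tfap2c (-0.25) and pax7a (-0.16) were also called lower from levels near or under background. The calls of sox5, tfap2c and pax7a were each lost in several omissions of 1 array. The count of genes called lower was 3 without control replicate 2, control replicate 4, light lesion replicate 3 or light lesion replicate 4. Another pax7a probe set, near background, was also called lower, from 7.10 to 6.87 (-0.23, limma adjusted p = 0.00389). The remaining pax7a probe sets, under background, did not pass (-0.10 and -0.11). The crest factor sox10 measured 8.92 ± 0.09 in control and 8.95 ± 0.16 in light lesion arrays (limma adjusted p = 0.761), and mitfb, a paralogue of mitfa, at 7.86 and 7.91 (limma adjusted p = 0.642).

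The pigment epithelium list holds the members dct, rpe65a and rgrb, but its largest rise was that of the keratin krt18a.1. Of 32 listed genes 12 were measured, of which 5 rose, 1 fell and 6 did not pass, with a median of 0.24. The count of rises was 5 to 6 under other settings of the analysis. Apart from dct, rpe65a and rgrb, 2 of 9 rose and 1 fell, with a median of 0.03, which is about the share over all genes (24.4% higher and 20.1% lower). The rises were those of the paired simple-epithelium keratins krt18a.1 and krt8. The mean of krt18a.1 went from 6.59 ± 0.03 to 7.98 ± 0.57 (1.39, SE 0.23, limma adjusted p = 0.0011). That of krt8 went from 8.94 ± 0.05 to 9.92 ± 0.36 (0.98, SE 0.15). Other epithelia express both keratins as well, and in controls krt18a.1 lay under background. The fall was that of the integrin subunit itgb5, which in mammals serves the epithelium in binding outer segments (-0.67, SE 0.06, limma adjusted p = 3.31e-05). The retinoid carrier rlbp1a, which shares the visual cycle with rpe65a, stood at 12.56 ± 0.05 and 12.59 ± 0.05 (difference 0.03, limma adjusted p = 0.683). The retinol transporter stra6 stood at 12.58 ± 0.09 and 12.51 ± 0.09 (limma adjusted p = 0.419). The other genes that did not pass lay on both sides of 0. They were gas6 (0.27, limma adjusted p = 0.0573), otx2b (0.21, limma adjusted p = 0.137), rdh10b (-0.01) and otx2a (-0.11).

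The other pigment cells of zebrafish are the reflective iridophores and the yellow xanthophores. Only 2 of 11 listed iridophore genes were measured, ednrba under background and impdh1b at 8.92 and 8.95, and neither passed (limma adjusted p = 0.671 and 0.786). The other probe set of impdh1b, also above background, was called lower, from 8.56 ± 0.12 to 8.27 ± 0.06 (-0.28, SE 0.07, limma adjusted p = 0.00683), so the 2 probe sets of impdh1b disagreed. Of 7 measured xanthophore genes 4 rose and 1 was called lower, with a median of 0.23, beside 24.4% of all genes called higher. The sugar transporter family members slc2a11b, from 7.65 ± 0.07 to 9.06 ± 0.18 (1.41, SE 0.08, limma adjusted p = 1.94e-06), and slc2a15b (0.44, and 0.99 at its other probe set, which lay under background in controls), both needed by pigment cells in medaka, rose. So did the GTP cyclohydrolase gch2, which starts pteridine synthesis (0.64, SE 0.14, limma adjusted p = 0.00536), though its dimmer probe set did not pass (0.17). The receptor csf1ra, on which xanthophores and also macrophages depend, rose by 0.23 from a level at background (7.03). It is counted in the microglia list as well. The gene called lower was pax7a, which the lineage list also holds. Of 11 genes of purine synthesis, the source of iridophore crystals and also of nucleotides in dividing cells, 3 rose and none fell, with prps1a (0.88) and atic (0.50) highest, a share near the 24.4% of all genes called higher.

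**Figure D5:**
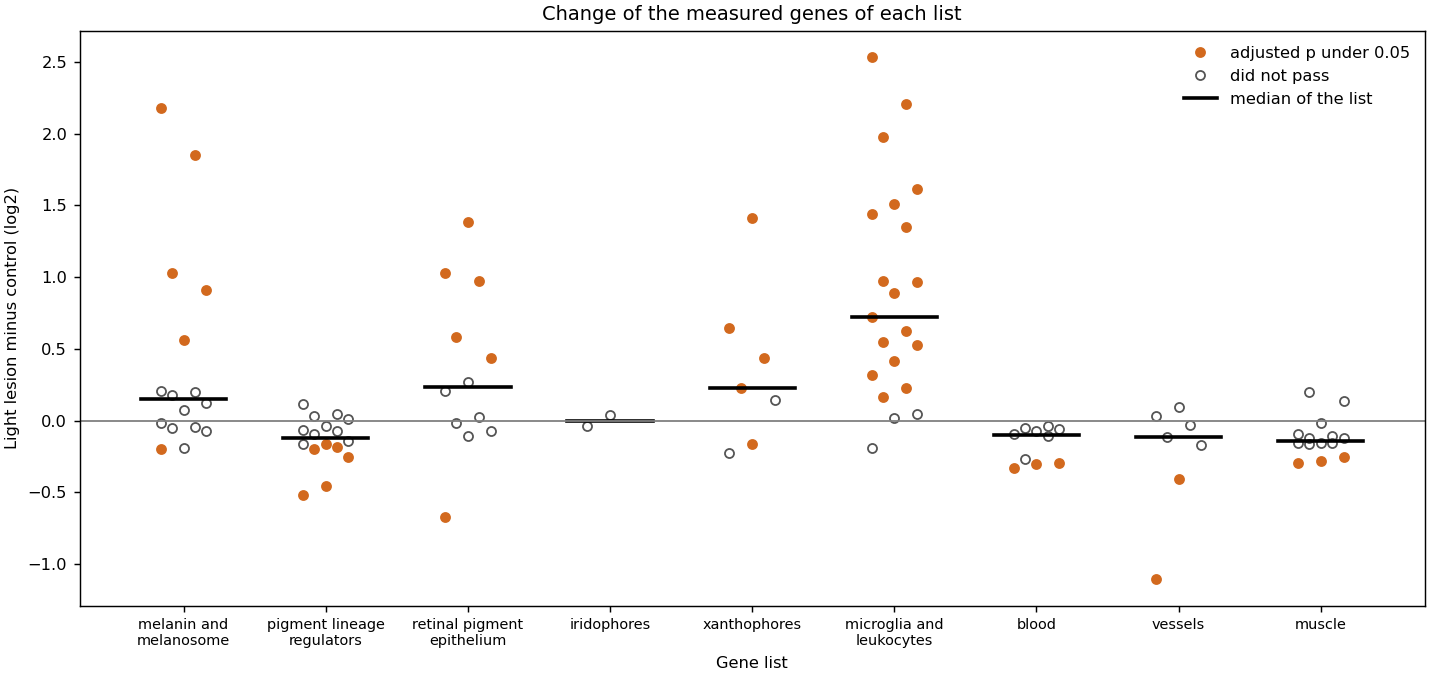
Light lesion minus control difference (log2) of each measured gene in 9 gene lists, filled where limma's adjusted p was under 0.05 and open where it was not, with each list's median as a bar. Lineage regulators lie at or under 0 apart from a few open points (median -0.12), while microglia and leukocyte genes lie mostly above 0 (median 0.72).

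Markers of other cells also differed between the control and light lesion arrays, in either direction. Of 21 measured microglia and leukocyte genes 18 rose, none fell and 3 did not pass, beside 24.4% of all genes called higher. The list's mean level per array was 8.03 to 8.10 in controls and 8.80 to 9.12 after the lesion. The galectin lgals9l1 (2.53) and the granulin grna (2.2) rose most, and grnb and ncf1 were at background in both groups. Retinal genes went the other way, with 10 of 15 called lower and 1 higher, beside 20.1% of all genes called lower. Their mean levels were 12.33 to 12.47 in controls and 11.73 to 11.87 after the lesion. The rod phosphodiesterase pde6a (-3.24) and gnat1 (-1.82) fell most. Of 10 blood genes 3 were called lower (hbba2 at -0.33 and nt5c2l1 at -0.30 changed most), of 7 vessel genes 2 (efnb2a at -1.11 and aqp1a.1 at -0.41), and of 14 muscle genes 3 (pvalb2 at -0.30 and mylz3 at -0.28 changed most), beside 20.1% of all genes called lower. None was called higher in these 3 lists, though 1 muscle gene was with array weights and without light lesion replicate 2. The call of pvalb2 was lost in several omissions of 1 array. At background in both groups were 5 of the blood genes, hbba2 among them, 3 of the vessel (tie1, kdrl and tek) and 3 of the muscle genes. Near or under background was nt5c2l1 (7.06 and 6.76), and the brightest blood gene, hbaa1, did not pass (11.26 and 10.99, limma adjusted p = 0.167). In controls efnb2a stood at 8.95 and aqp1a.1 at 11.41, and whether their falls came from vessels was not tested. The excess of the 3′ over the 5′ GAPDH control probe set, a measure of RNA or labelling quality, was 0.03 to 0.08 in controls and 0.16 to 0.29 after the lesion. The part of these shifts in the rises of tspan36, pmelb, dct, rpe65a and rgrb was not tested.

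The tetraspanin family was looked at after the value of tspan36 had been seen. Only genes with a tspan symbol or a tetraspanin cd symbol such as cd63 were taken, so members with other names were not counted. Of 18 such genes measured 7 rose, 2 fell and 9 did not pass, with a median of 0.09. Beside this 24.4% of all genes were called higher and 20.1% lower. These counts include tspan36 itself, which prompted the look, and cd63, already counted in the melanin list. After tspan36 and cd63, the largest rises were those of tspan6 (1.39) and tspan37 (1.27). The 2 called lower were tspan13b (-0.50, limma adjusted p = 0.0396, with overlapping groups) and tspan7 (-0.28).

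The genes closest in pattern were sought by the root mean square difference over the 8 arrays, after each gene's control mean had been taken off. Genes with provisional symbols were left out of this search. For tspan36 they were the thioredoxin txnb (0.19), the stress-responsive factor atf5a (0.20) and the neural factor sox11b (0.20). For pmelb they were the replication-linked pclaf (0.16), foxn4 (0.19) and the thioredoxin-binding txnipa (0.19). The likeness of foxn4 holds for its brightest probe set, since the mean over its probe sets rose by 0.81 only. The mean over the sox11b probe sets rose by 2.74, also less than its brightest probe set (3.31). For dct they were the ribosomal protein gene rplp0 (0.08), gnpda1 (0.10) and arf5 (0.10). None of these is a pigment gene of the lists above, and likeness over 8 arrays in 2 groups rests mainly on the size of the change.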

How the data were processed

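Whole-retina RNA from 8 samples, 4 control and 4 light lesion by their titles, was measured on Affymetrix zebrafish arrays. The log2 values deposited by the authors, 1 for each probe set on each array, came from RMA according to the labels (per the submitters' processing notes). Version and steps of RMA were not given in the sources used here, and the log base was read from the range, 5.47 to 14.89. Of 15617 probe sets 115 controls were left out. The annotation gave 10795 probe sets 1 symbol, 135 several and 4572 none. The symbols of 10711 were found by gene identifier in the RefSeq table, with 1 updated. Where a gene had several probe sets, that with the highest mean stood for it. The files name no genome build, so no coordinates are given. The number of arrays limits the precision.

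Differences between groups were tested in limma 3.58.1 under R 4.3.3 (lmFit, eBayes, two-sided, no covariate, no filter), with Benjamini-Hochberg adjustment over 15502 probe sets and a threshold of 0.05. On simulated arrays of this comparison, with 15502 probe sets, 82% of those changed by 0.5 and 98% of those changed by 1 (log2) were called. The members, lists and tests were chosen with earlier results of these data known. Lists are described by counts and medians. Named were all members, and up to 5 called genes of largest change in each of the 5 pigment lists and 2 in each other list. Also named were a few set genes (of which sox10, kita, rlbp1a and gch2 were measured). So were the 3 genes most like each of tspan36, pmelb and dct, provisional symbols left out. Chosen after their values were seen were hps4, mitfb, stra6, gas6, otx2b, rdh10b, otx2a, ednrba, impdh1b, grnb and ncf1. So were hbaa1, tie1, kdrl, tek, tspan6, tspan37, tspan13b and tspan7. The planned comparison of pmelb with pmela was not made, as pmela was not measured.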

Additional observations from a re-analysis of the deposited data

Results flagged for a closer look

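In 3 of 110 groups of 4 arrays looked at, 1 array lay far from the other members of its group, and chance alone gives about 1 in 20 such groups. For sox5, light lesion replicate 3 read 7.09 and the others 7.23 to 7.26. For csf1ra, control replicate 1 read 6.99 and the others 7.05 (7.046 to 7.054). For foxn4, control replicate 3 read 7.76 and the others 7.41 to 7.44. None of the 8 probe sets of the pigment genes themselves had such an array.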

How the results depend on the processing

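The 5 pigment genes called higher and none lower were counted under all 16 alternatives, which included a second quantile normalization, median centring, omission of dim probe sets, another variance prior, array weights, omission of each array, averaged probe sets and a threshold of 0.01. The difference of tspan36 stayed within 3.15 to 3.34, pmelb within 2.03 to 2.33, dct within 0.97 to 1.13, rpe65a within 0.45 to 0.64 and rgrb within 0.39 to 0.48. With mitfa it ran from 0.05 to 0.19 (adjusted p = 0.0545 at the least) and with tyr, which omission of dim probe sets removed, from -0.08 to 0.02. List counts depended more on the settings. Genes of the melanin list called lower were 0 with the trended and robust prior and 0 to 1 when 1 array was omitted, and those called higher 5 to 8. Lineage regulators called lower were 3 to 6 when 1 array was omitted. Xanthophore genes called lower were 0 without dim probe sets, with the trended and robust prior or with averaged probe sets, 2 with array weights, and 0 to 2 when 1 array was omitted. The cause was not tested. The replicate numbers are shared by the groups, and the deviations of same-numbered arrays correlated at -0.21, 0.28, -0.24 and 0.17. With both signs among so few values, these correlations cannot decide whether the numbers pair the arrays. With the replicate block the genes called lower were 0 in the melanin list, 3 among lineage regulators and 0 among xanthophore genes, and no call of a pigment gene changed. The median difference of all probe sets was -0.04 as deposited and -0.03 after either scaling. The level limits tyr, mitfa, kita, csf1ra, krt18a.1, hbba2 and nt5c2l1, among others, which lay at, near or under background in 1 or both groups.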
